A study of Mus musculus with 6 samples.

Results

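The 10 genes *Anln*, *Ect2*, *Prc1*, *Racgap1*, *Cep55*, *Cit*, *Rhoa*, *Rock1*, *Chmp4b* and *Spast* encode proteins that carry a dividing cell from anaphase to the separation of its daughters. They were chosen by name from what is known of cytokinesis and the midbody, not by a rule on their measured values. Earlier results of these data were known at that choice. All 10 were found among the 32493 genes of the count table. All 10 also passed the filter on low counts, which left 16710 genes to be tested. The RNA came from neural stem cells (NSCs) of C57BL/6J mouse embryos at E14.5, dissected from the lateral ventricles and grown in culture. In the cko group the floxed miR-151 locus, which lies in an intron of *Ptk2*, was removed by Emx1-IRES-Cre. The control group is called ctrl here. The sample labels give its genotype as wt, while the study's methods describe Cre-negative embryos that were also homozygous for the floxed allele, and describe the cko and ctrl embryos as littermates. Labels and methods also differ in the RNA extraction and in the supplements of the medium. Emx1-driven Cre acts in the dorsal telencephalon, so cultures taken from the lateral ventricles may hold cells that Cre did not reach. The 3 cko libraries and 2 of the ctrl libraries, ctrl 1 and ctrl 3, entered every value below, except in alternative fits that are named as such. The ctrl 2 column held, in 32493 of 32493 genes, the mean of the ctrl 1 and ctrl 3 columns rounded up to a whole number, and it was counted in no stated n. Fits that counted it as a library are given only as alternatives. The column adds no measurement, so those fits understate the spread between ctrl libraries and their added calls are not further evidence. The labels did not say whether libraries of a group came from separate embryos or cultures, so the p-values measure the spread between these libraries, which may be technical.

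Cytokinesis starts when a band of antiparallel microtubules, the central spindle, forms between the separating chromosomes and marks the plane of division. There the small GTPase RHOA is switched on and drives assembly of a ring of actin and myosin, whose closure leaves a thin bridge with the midbody at its centre. The ESCRT-III membrane-cutting filaments and microtubule-severing enzymes then cut this bridge. In the embryonic cortex the step takes place at the ventricular surface, where radial glia divide, and loss of some midbody proteins is known to reduce brain size.

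Library totals ranged from 17883796 to 23335736 counts, and 3 counts, the floor used here for a signal, corresponded to between 0.129 and 0.168 CPM. CPM are counts scaled to the size of each library, here adjusted by the trimmed mean of M-values (TMM), and the 10 genes had between 298 and 6325 counts in each library. The NSC markers *Sox2* (556 to 626 CPM) and *Nes* (471 and 537 CPM in ctrl, 874.5 to 1068 CPM in cko) were detected in all 5 libraries. Markers of other neural cells were detected too, with astrocyte markers summing to between 1199 and 3738 CPM and oligodendrocyte lineage markers to between 3221 and 3842 CPM. In contrast, 8 microglia markers summed to at most 0.80 CPM and 6 of the 8 were at or under the floor everywhere. The deleted microRNA has no row in the count table, so its loss was not checked here.

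Of the 10 genes, 6 were higher in cko NSCs than in ctrl NSCs and 4 did not pass the test (edgeR quasi-likelihood test, Benjamini-Hochberg adjusted p under 0.05 over all tested genes). The 6 were *Ect2*, *Racgap1*, *Prc1*, *Anln*, *Cep55* and *Cit*, with fold changes between 1.65 and 2.28. Over all tested genes, 7.86% were called higher by the same rule and 8.57% lower. None of the 10 was called lower, 0 were lower at an unadjusted p under 0.05, and DESeq2 called 0 lower. In bulk RNA, more dividing cells in a culture and more RNA per dividing cell cannot be told apart. The study's own rule, a log2 fold change beyond 0.9 with an unadjusted p under 0.01, was used there with DESeq2. Applied here to the edgeR fit of 5 libraries, it kept 5 of the 6 and left out *Cit*. It called 2.39% of all tested genes higher and 4.17% lower. In 7 genes every cko library lay above both ctrl libraries, namely the 6 above and *Spast*, and in *Rhoa* every cko library lay below them. Such separation was common in these data, with 25.4% of tested genes separated upward and 24.3% downward.

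**Figure D1:**
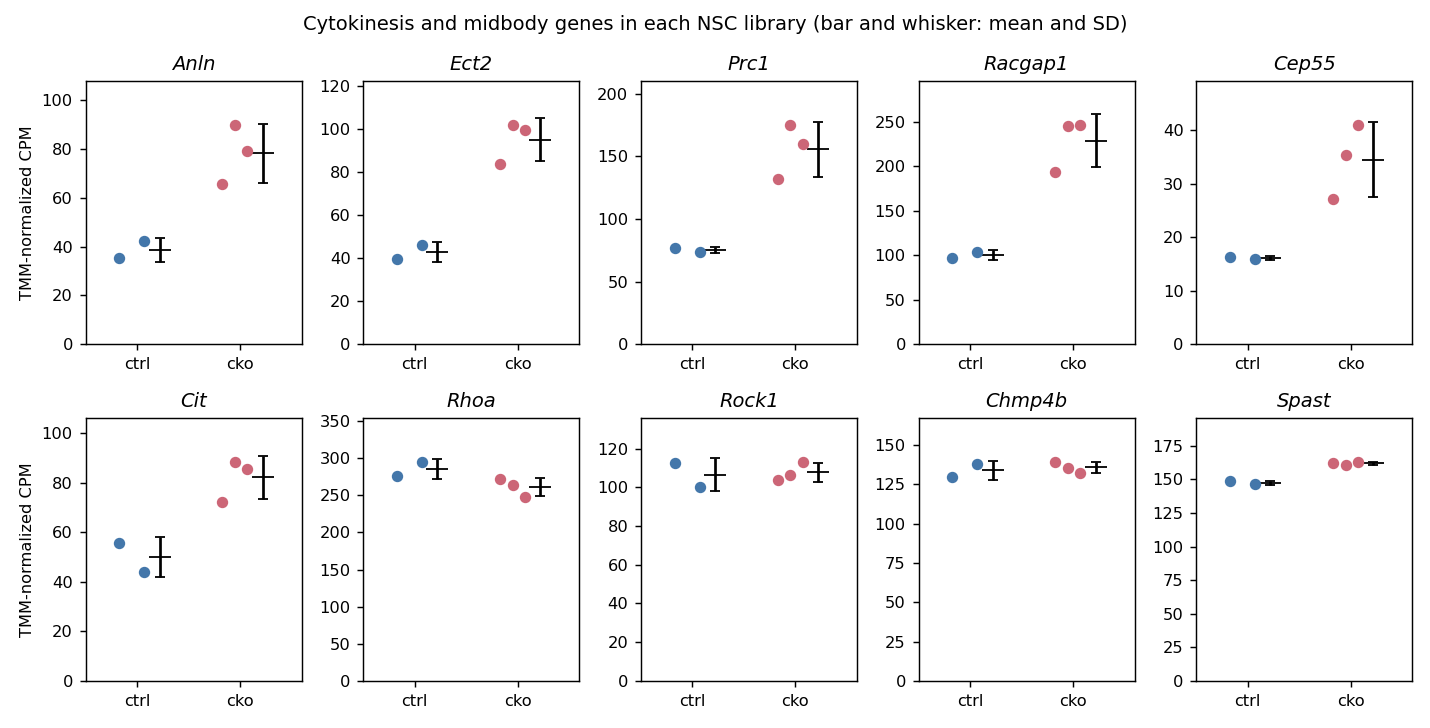
Level of each of the 10 genes in the 5 libraries, in TMM-normalized CPM, with 1 point per library and a bar at the mean of each group. The 3 cko points stand above both ctrl points for *Anln*, *Ect2*, *Prc1*, *Racgap1*, *Cep55*, *Cit* and *Spast* and below them for *Rhoa*. For *Rock1* and *Chmp4b* the cko and ctrl points overlap.

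The switch of the division plane was examined first. *Ect2* (ENSMUSG00000027699, chromosome 3, 27097222 to 27153878, minus strand, GRCm38) encodes the exchange factor that loads RHOA with GTP at the cell equator. Its level was 39.5 CPM in ctrl 1 and 46.0 CPM in ctrl 3, against 83.5, 102 and 99.5 CPM in cko 1, cko 2 and cko 3. The groups did not overlap, and the lowest cko library stood well above the higher ctrl library. The means were 42.8 ± 4.57 CPM (SD, n = 2) in ctrl and 94.98 ± 9.98 CPM (SD, n = 3) in cko, which is a log2 change of 1.15 (SE 0.118, 95% interval 0.88 to 1.43, adjusted p = 0.00207).

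*Rhoa* (ENSMUSG00000007815, chromosome 9, 108306129 to 108337934, plus strand) encodes the GTPase that ECT2 activates. It measured 276 and 295 CPM in ctrl 1 and ctrl 3, and 272, 264 and 248 CPM in cko 1, cko 2 and cko 3. All 3 cko libraries were lower than both ctrl libraries, but by little. The log2 fold change of -0.13 (SE 0.0779) had a 95% interval from -0.31 to 0.05, that is a fold between 0.805 and 1.04, and did not pass the test (adjusted p = 0.289). The exons of *Rhoa* share 4.32% of their bases with the antisense gene *Gm37401* and 0.427% with *Tcta* on the other strand, and since the strand setting of the counting is not given in the sources used here, reads in those stretches cannot be assigned with certainty.

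*Rock1* (ENSMUSG00000024290, chromosome 18, 10064401 to 10182045, minus strand) encodes a RHOA-activated kinase that promotes myosin contraction. Ctrl 1 and ctrl 3 had 112.5 and 100.4 CPM, and cko 1, cko 2 and cko 3 had 104, 106 and 113 CPM. The groups overlapped. The log2 fold change was 0.02 (SE 0.0834, 95% interval -0.18 to 0.21, adjusted p = 0.907). The activator of the switch thus passed the test, while its GTPase and this kinase did not, and their intervals lay below that of *Ect2*. The difference between these genes in response was not tested.

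The 2 central spindle genes both rose. *Prc1* (ENSMUSG00000038943, chromosome 7, 80294450 to 80316259, plus strand) encodes the protein that bundles antiparallel microtubules into the central spindle. It had 77.2 and 73.4 CPM in ctrl 1 and ctrl 3, and 132, 175 and 160 CPM in cko 1, cko 2 and cko 3. No cko library came near the ctrl values. The means of 75.3 ± 2.70 CPM (SD, n = 2) and 155.5 ± 22.1 CPM (SD, n = 3) gave a log2 change of 1.05 (SE 0.125, 95% interval 0.75 to 1.34, adjusted p = 0.00297). Of its exon bases, 11.1% are shared with *Rccd1* on the opposite strand, and *Rccd1* itself showed a log2 change of 0.07 (adjusted p = 0.743), at 18.3 CPM in ctrl and 19.1 CPM in cko.

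*Racgap1* (ENSMUSG00000023015, chromosome 15, 99620496 to 99651656, minus strand) encodes the GTPase-activating subunit of centralspindlin, the complex that docks ECT2 on the central spindle. Ctrl 1 and ctrl 3 had 96.7 and 104 CPM, against 194, 246 and 247 CPM in cko 1, cko 2 and cko 3. This was the highest fold among the 10 genes, 2.28 (95% interval of the log2 fold change 0.90 to 1.47, SE 0.122, adjusted p = 0.00207). The means were 100.5 ± 5.30 CPM (SD, n = 2) and 229 ± 30.0 CPM (SD, n = 3).

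Among the genes of the ring and the midbody, *Anln*, *Cep55* and *Cit* rose, with overlapping intervals. *Anln* (ENSMUSG00000036777, chromosome 9, 22332012 to 22389188, minus strand) encodes anillin, which links actin, myosin, septins and RHOA in the ring. It had 35.2 and 42.3 CPM in ctrl 1 and ctrl 3, and 65.5, 89.9 and 79.3 CPM in cko 1, cko 2 and cko 3. The groups were apart, although the cko libraries spread widely among themselves. The means of 38.7 ± 5.02 CPM (SD, n = 2) and 78.3 ± 12.2 CPM (SD, n = 3) gave a log2 change of 1.02 (SE 0.149, 95% interval 0.67 to 1.37, adjusted p = 0.00596).

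*Cep55* (ENSMUSG00000024989, chromosome 19, 38055011 to 38074423, plus strand) encodes the midbody protein that brings in the ESCRT machinery through ALIX and TSG101. It measured 16.4 and 15.9 CPM in ctrl 1 and ctrl 3, and 27.1, 35.45 and 41.0 CPM in cko 1, cko 2 and cko 3. It had the fewest counts of the 10 genes, at least 298 in every library, so counting error was small beside the spread between cko libraries. The means were 16.1 ± 0.340 CPM (SD, n = 2) and 34.5 ± 7.004 CPM (SD, n = 3). The log2 fold change was 1.10 (SE 0.177, 95% interval 0.68 to 1.51, adjusted p = 0.00819).

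*Cit* (ENSMUSG00000029516, chromosome 5, 115845278 to 116008947, plus strand) encodes citron kinase, a midbody protein that keeps the late bridge in order and whose loss causes microcephaly. Ctrl 1 and ctrl 3 had 55.6 and 44.2 CPM, and cko 1, cko 2 and cko 3 had 72.4, 88.6 and 85.5 CPM. The groups did not overlap, but the ctrl libraries lay further apart than for *Prc1* or *Cep55*. The means were 49.9 ± 8.05 CPM (SD, n = 2) and 82.2 ± 8.58 CPM (SD, n = 3). The log2 fold change was 0.72 (SE 0.130, 95% interval 0.41 to 1.02, adjusted p = 0.0121). Without cko 2 or without cko 3 the adjusted p was 0.0645 and 0.0652, and the call was lost. Over all tested genes these fits called 317 and 336 higher, against 1314 with all 5 libraries. The gene also makes citron-N, a neuronal form without the kinase domain, and counts per gene do not separate the forms.

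The genes that cut the bridge did not pass the test. *Chmp4b* (ENSMUSG00000038467, chromosome 2, 154651705 to 154694785, plus strand) encodes the ESCRT-III subunit that polymerizes into the constricting filament. It had 130 and 138 CPM in ctrl 1 and ctrl 3, and 139.5, 135.5 and 132.5 CPM in cko 1, cko 2 and cko 3. The 5 values fell within a narrow range and the groups overlapped. The log2 fold change was 0.02 (SE 0.0717, 95% interval -0.15 to 0.19, adjusted p = 0.875).

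*Spast* (ENSMUSG00000024068, chromosome 17, 74338987 to 74391115, plus strand) encodes spastin, which severs the bridge microtubules and is mutated in hereditary spastic paraplegia. It had 149 and 146 CPM in ctrl 1 and ctrl 3, and 162, 161 and 163 CPM in cko 1, cko 2 and cko 3. The groups were apart and each was tight, with means of 147.5 ± 1.52 CPM (SD, n = 2) and 162 ± 1.202 CPM (SD, n = 3). The fold of 1.10 (log2 fold change 0.14, SE 0.0669, 95% interval -0.02 to 0.29) did not pass the test (adjusted p = 0.208), and when the ctrl 2 column was counted as a library the adjusted p was 0.036 in edgeR, 0.0931 in edgeR with a replicate block and 0.0703 in DESeq2. That column is the mean of the other ctrl columns, so the pass in edgeR is not further evidence of a change.

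**Figure D2:**
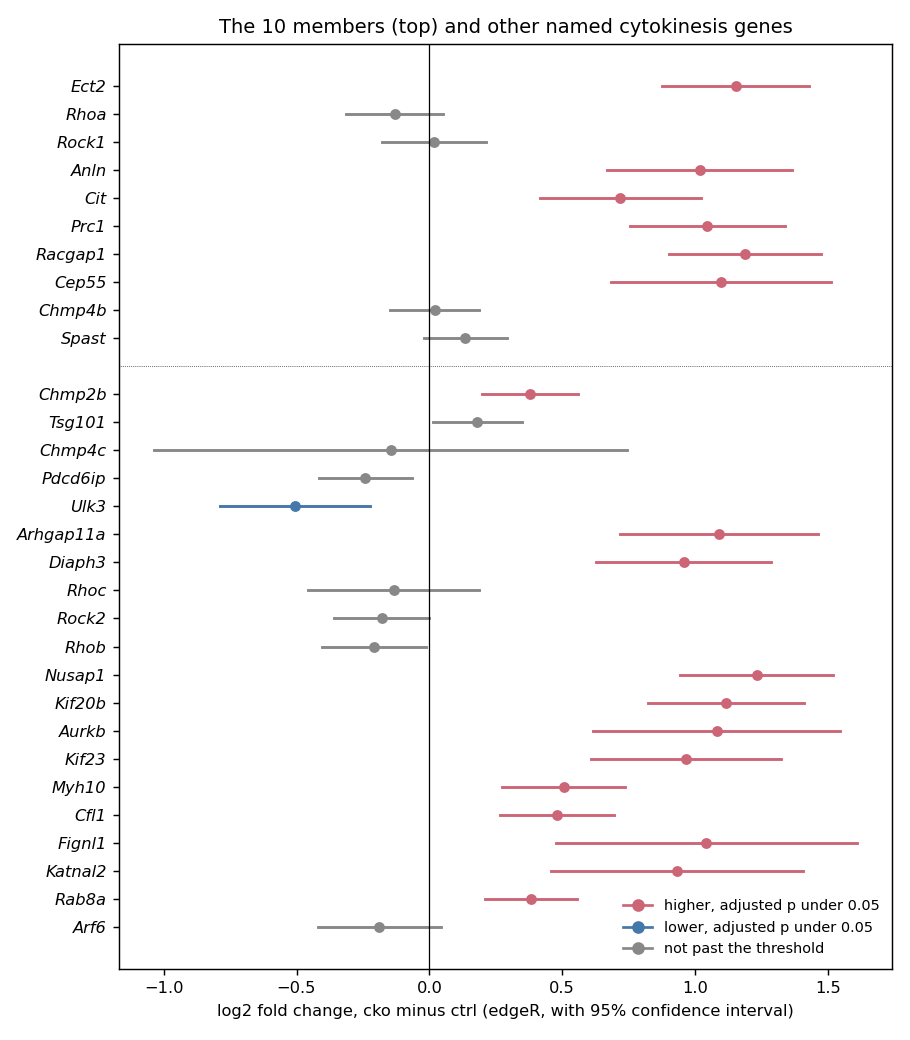
Log2 fold change, cko minus ctrl, with its 95% interval from the edgeR quasi-likelihood fit. The 10 genes stand above the dotted line and the other named cytokinesis genes below it. The intervals of *Racgap1*, *Ect2*, *Cep55*, *Prc1*, *Anln* and *Cit* lie above 0, and those of *Spast*, *Chmp4b*, *Rock1* and *Rhoa* include 0.

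Within the cko group, each of the 6 called genes was lowest in cko 1. As a description over the 5 libraries, likeness was measured as the root mean square difference between centred log2 CPM profiles, where 0 means the same shape. The profiles are centred over both groups and so hold the difference between cko and ctrl. Nearness therefore restates in part which genes were called and is not separate evidence of shared control. *Ect2* and *Racgap1* were each other's nearest among the 10 genes (0.0481). The nearest to *Anln* was *Ect2* (0.0914), the nearest to *Prc1* and to *Cep55* was *Racgap1* (0.101 and 0.11), and *Cit* was nearest to *Prc1* at a larger distance (0.178). Among the genes that did not pass the test, *Chmp4b* and *Spast* were nearest to each other (0.0716), *Rhoa* to *Chmp4b* (0.0776) and *Rock1* to *Spast* (0.0814). The farthest pair was *Racgap1* and *Rhoa* (0.662). Of 10180 genes with a mean of at least 10 CPM, those nearest to the mean profile of *Anln*, *Ect2*, *Prc1*, *Racgap1* and *Cep55* were *Bub1b* (0.0128), a spindle checkpoint kinase, *Kif18b* (0.0374), a mitotic kinesin, and *Mad2l1* (0.0404), a spindle checkpoint protein, beside a median distance of 0.549 over the genes searched. *Cit*, also called higher, was not part of this mean profile.

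Levels between genes were compared per kilobase, as CPM divided by the length of the longest annotated coding transcript, and neighbours were taken as not differing beyond their spread where their means were closer than the sum of their SDs. In ctrl NSCs *Rhoa* stood first at 130 ± 6.16 CPM per kb (SD, n = 2), followed by *Chmp4b* at 82.9 ± 3.62. *Racgap1* (32.9 ± 1.74) and *Spast* (31.6 ± 0.325) did not differ beyond their spread, and *Prc1* came next at 24.9 ± 0.892. *Rock1* (16.5 ± 1.33) was above *Ect2* (10.5 ± 1.12) and *Anln* (8.41 ± 1.09), which did not differ beyond their spread. *Cep55* (5.85 ± 0.123) and *Cit* (5.24 ± 0.846) were last and did not differ beyond their spread. In cko NSCs the gap between *Rhoa* and *Racgap1* was smaller, at 119 ± 5.63 and 75.0 ± 9.84 CPM per kb (SD, n = 3), and *Racgap1* and *Chmp4b* (84.1 ± 2.19) did not differ beyond their spread. *Ect2* reached 23.2 ± 2.44 and so lay above *Rock1* at 16.7 ± 0.770, while *Anln* (17.0 ± 2.66) and *Rock1* did not differ beyond their spread. *Prc1* (51.4 ± 7.29) passed *Spast* (34.7 ± 0.257), and *Cep55* (12.5 ± 2.54) came to lie above *Cit* (8.63 ± 0.902).

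Promoters were read from RefSeq (assembly GRCm38.p6) for 9 of the 10 genes. The letters TTTGAA, the core of the cell cycle genes homology region (CHR) that is known from promoters of late cell cycle genes, were searched on both strands in 300 bases, from 250 before to 50 after each start, together with the related TTCGAA and the CCAAT box. These motifs do not overlap one another in the matches found. The windows of 170 bases, 120 before and 50 after the start, are shown at the first listed start for the 5 genes with a TTTGAA match, all called higher, and for *Rhoa* and *Spast* as genes that did not pass the test. The windows of *Cit*, which was called higher but had no match, and of *Chmp4b* are not shown. They run 5′ to 3′ along the gene's strand, and capitals mark TTTGAA and CCAAT or their reverse complements TTCAAA and ATTGG.
Ect2 (chr3:27153829-27153998, minus strand): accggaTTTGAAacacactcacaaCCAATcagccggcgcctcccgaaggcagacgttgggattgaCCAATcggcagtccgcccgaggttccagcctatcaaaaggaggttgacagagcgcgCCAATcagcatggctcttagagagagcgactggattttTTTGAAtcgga
Prc1 (chr7:80294331-80294500, plus strand): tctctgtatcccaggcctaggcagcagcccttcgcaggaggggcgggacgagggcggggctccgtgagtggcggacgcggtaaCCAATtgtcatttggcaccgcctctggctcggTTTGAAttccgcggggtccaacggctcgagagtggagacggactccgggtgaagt
Racgap1 (chr15:99651607-99651776, minus strand): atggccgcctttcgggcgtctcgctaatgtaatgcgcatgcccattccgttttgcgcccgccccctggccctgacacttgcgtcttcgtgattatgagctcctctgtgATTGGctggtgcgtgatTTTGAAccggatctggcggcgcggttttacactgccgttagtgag
Anln (chr9:22389157-22389326, minus strand): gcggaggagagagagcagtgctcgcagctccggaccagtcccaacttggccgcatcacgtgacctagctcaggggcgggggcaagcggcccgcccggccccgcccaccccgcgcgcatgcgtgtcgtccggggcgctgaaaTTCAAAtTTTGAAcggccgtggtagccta
Cep55 (chr19:38054864-38055033, plus strand): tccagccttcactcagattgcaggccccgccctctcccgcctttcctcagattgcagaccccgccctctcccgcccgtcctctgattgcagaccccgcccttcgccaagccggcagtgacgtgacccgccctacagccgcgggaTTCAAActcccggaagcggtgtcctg
Rhoa (chr9:108306040-108306209, plus strand): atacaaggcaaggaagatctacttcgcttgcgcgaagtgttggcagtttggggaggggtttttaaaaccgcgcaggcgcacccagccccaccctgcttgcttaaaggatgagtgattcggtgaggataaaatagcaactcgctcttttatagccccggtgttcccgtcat
Spast (chr17:74338867-74339036, plus strand): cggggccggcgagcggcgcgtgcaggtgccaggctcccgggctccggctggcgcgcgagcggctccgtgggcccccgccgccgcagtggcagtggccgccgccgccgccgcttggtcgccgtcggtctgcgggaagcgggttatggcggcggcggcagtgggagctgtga

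TTTGAA was found in 5 of the 9 genes with a promoter and TTCGAA in 0 of them. Positions are counted at the first base of a match, and those after the start are counted with the start base itself as the first. In *Anln* it lay at 22 bases (reverse strand) and 29 bases after the start, and in *Racgap1* at 6 bases after it. At the first listed start, *Prc1* had it 5 bases before the start, *Ect2* at 114 before and 40 after, and *Cep55* at 25 after (reverse strand). No match was found in the windows of *Cit*, *Rhoa*, *Chmp4b* or *Spast*. The RefSeq start used for *Chmp4b* lies 5321 bases from the GENCODE start of the gene and that of *Cit* 378 bases from it, and no other start of these genes was searched. At the first listed start, CCAAT was present in *Ect2* (3 matches, at 96 and 55 bases before the start and 2 after), in *Prc1* (37 before) and in *Racgap1* (12 before, reverse strand). Over all 32851 promoters, 17.9% held TTTGAA, 1.56% TTCGAA and 37.4% CCAAT, and over the 11295 tested genes with a promoter 14.1% held TTTGAA. These matches describe letters in these windows and were not tested for binding or for a part in the changes of these genes.

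**Figure D3:**
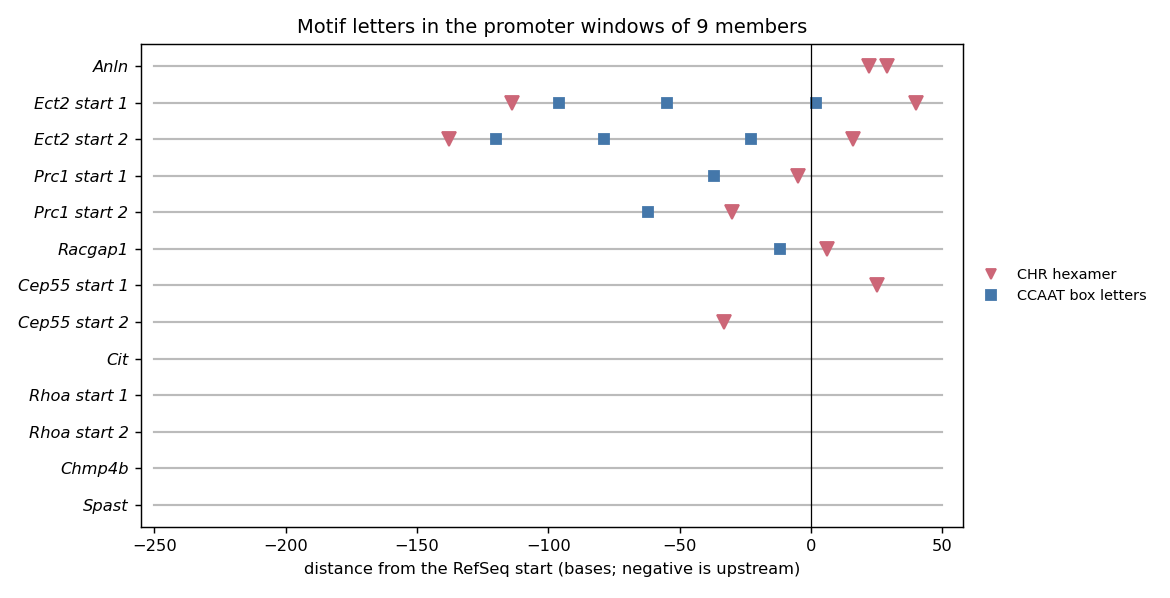
Positions of TTTGAA (the CHR hexamer, triangles) and CCAAT (squares) in the promoter windows of 9 genes, in bases from the RefSeq start, with 1 line per annotated start. Triangles stand on the lines of *Anln*, *Ect2*, *Prc1*, *Racgap1* and *Cep55*, and the lines of *Cit*, *Rhoa*, *Chmp4b* and *Spast* carry no mark.

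The partners of these genes were taken from 6 lists holding 76 genes, all of which were tested. Of them 20 were higher in cko NSCs and 1 was lower, with a median log2 fold change of 0.10, beside 7.86% higher and 8.57% lower and a median of -0.0026 over all tested genes. Without cko 2, as without cko 3, 12 of the 76 were higher. Over all tested genes these fits called 317 of 16284 and 336 of 16306 higher, against 1314 of 16710 with all 5 libraries. The 20 were spread unevenly over the steps of division.

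All 11 central spindle partners were higher, with log2 fold changes from 0.97 to 1.36 and a median of 1.12. *Nusap1*, which binds and bundles spindle microtubules, went from 52.6 and 54.1 CPM in ctrl to 107, 141 and 128 CPM in cko (log2 fold change 1.23, adjusted p = 0.00192). *Kif20b*, a kinesin of the midzone and midbody, rose by 1.12 on the log2 scale (adjusted p = 0.00259). *Kif23*, the motor that forms centralspindlin together with RACGAP1, had 37.5 and 37.6 CPM in ctrl and 57.97, 80.5 and 81.3 CPM in cko (log2 fold change 0.97, adjusted p = 0.00777). *Aurkb*, the kinase that controls central spindle assembly and delays abscission, showed a log2 change of 1.08 (adjusted p = 0.013). In 6 of the 8 partners with a RefSeq promoter TTTGAA was present.

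*Arhgap11a*, which encodes a GTPase-activating protein for RHOA, rose from 71.9 and 77.2 CPM in ctrl to 125, 167.5 and 183.5 CPM in cko (log2 fold change 1.09, adjusted p = 0.00596). *Diaph3*, which encodes a formin that builds actin filaments of the ring, rose from 11.3 and 13.2 CPM to 21.1, 24.3 and 25.8 CPM (log2 fold change 0.96, adjusted p = 0.00604). The paralogs of *Rhoa* and *Rock1* did not pass the test. *Rhob* showed a log2 change of -0.21 (adjusted p = 0.132), *Rhoc* of -0.13 (adjusted p = 0.548) and *Rock2* of -0.18 (adjusted p = 0.152). For *Rhoc* the sign depended on the control library, at 0.11 without ctrl 1 (adjusted p = 0.437) and -0.35 without ctrl 3 (adjusted p = 0.0307, past the threshold). With the ctrl 2 column counted as a library in edgeR, *Rhob* and *Rock2* passed as lower (adjusted p = 0.0349 and 0.0447), but that column is the mean of the other ctrl columns and adds no measurement.

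Of 15 contractile ring genes 3 were higher, and the median was -0.17. *Myh10*, which encodes non-muscle myosin heavy chain IIB, had 256 and 235 CPM in ctrl and 313, 373 and 361 CPM in cko (log2 fold change 0.51, adjusted p = 0.016). *Cfl1*, encoding the actin-severing protein cofilin, showed a log2 change of 0.48 (adjusted p = 0.0151), and *Septin6*, named after its values were seen as the remaining call, of 0.40 (adjusted p = 0.0403). The calls of *Myh10* and *Cfl1* were lost without cko 2 and without cko 3.

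Of 20 ESCRT and abscission genes 1 was higher and 1 lower, and the median was 0.13. *Chmp2b*, an ESCRT-III subunit, showed a log2 change of 0.38 (adjusted p = 0.0182), and *Ulk3*, a kinase of the abscission checkpoint, fell by 0.50 (adjusted p = 0.0309). Both calls were lost when any of the cko libraries was left out. The proteins that CEP55 recruits did not pass the test, with *Pdcd6ip* (ALIX) at -0.24 (adjusted p = 0.0682) and *Tsg101* at 0.18 (adjusted p = 0.126) on the log2 scale. *Pdcd6ip* passed as lower with at least 10 counts in every library (adjusted p = 0.0492), and it did so in the 3 fits that counted the ctrl 2 column (adjusted p from 0.00701 to 0.0227), where *Tsg101* passed as higher (adjusted p from 0.0176 to 0.0471). The ctrl 2 column is the mean of the other ctrl columns and adds no measurement, so the passes in those 3 fits are not further evidence. *Chmp4c*, the paralog of *Chmp4b* that times abscission, showed a log2 change of -0.15 (adjusted p = 0.83), which was 0.64 without ctrl 1.

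Of 7 microtubule-severing genes 2 were higher, with a median of 0.15. They were *Fignl1*, whose protein acts in DNA repair (log2 fold change 1.04, adjusted p = 0.0284), and the katanin-like *Katnal2* (0.93, adjusted p = 0.0227). Of 9 genes of vesicle traffic to the midbody 1 was higher, the GTPase gene *Rab8a* (0.38, adjusted p = 0.0155), and the median was -0.04. *Arf6*, a GTPase of endosomes delivered to the bridge, showed a log2 change of -0.19 (adjusted p = 0.232). The calls of *Fignl1*, *Katnal2*, *Rab8a* and *Aurkb* were lost without cko 2 and without cko 3.

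**Figure D4:**
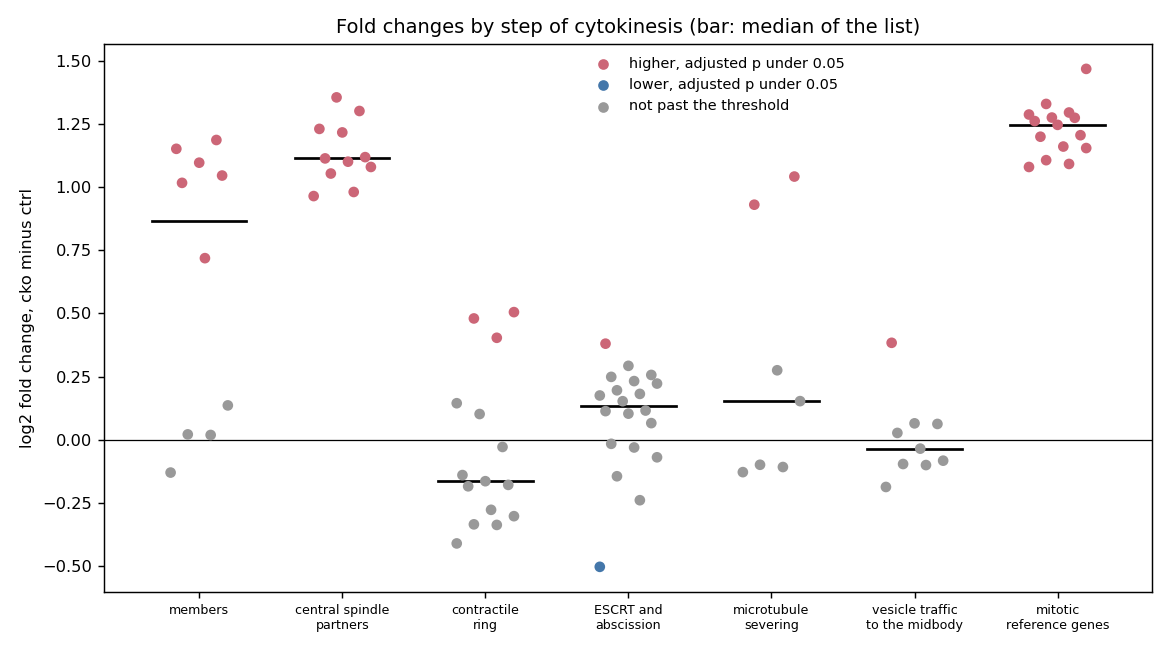
Log2 fold change, cko minus ctrl, of the 10 genes, of 5 lists of partners and of the mitotic reference genes, with 1 point per tested gene and a bar at the median. The central spindle partners and the mitotic reference genes are all called higher, with medians of 1.12 and 1.25, and the medians of the remaining 4 lists lie between -0.17 and 0.15.

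Genes of mitosis outside cytokinesis moved with the 6 called genes. All 15 mitotic reference genes were higher, with log2 fold changes from 1.08 to 1.47 and a median of 1.25. The 6 called cytokinesis genes ranged from 0.72 to 1.19. The median over all 10 cytokinesis genes was 0.87, which includes the 4 that did not pass the test. Their summed level was 1275 and 1351 CPM in ctrl and 2625, 3386 and 3273 CPM in cko, and among cko libraries it was lowest in cko 1, as were the 6 called genes. *Mki67*, the proliferation marker, had 254 and 269 CPM in ctrl and 539, 705 and 683 CPM in cko. Of these genes 10 of the 13 with a RefSeq promoter held TTTGAA and 13 of the 13 held CCAAT. Of 12 S-phase reference genes 7 were higher, with a median of 0.77. The part of the mitotic and S-phase genes' change in the level of the 6 genes was not tested.

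Markers of other cell types also moved between the groups. Of 10 astrocyte markers 6 were lower and all 10 log2 fold changes were negative, with summed levels of 3738 and 2499 CPM in ctrl and 1892, 1199 and 1266 CPM in cko. Of 12 NSC markers 4 were higher and 2 lower, of 10 tested neuron markers 2 were higher and 1 lower, and of 11 oligodendrocyte lineage markers 2 were higher and 6 lower. Anillin also scaffolds septins in central myelin, so *Anln* has a known source outside dividing cells. Endothelial markers summed to between 4.32 and 6.76 CPM, and mural and fibroblast markers to between 1.74 and 7.15 CPM. Their part in the levels of the 10 genes was not tested.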

How the data were processed

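RNA from cultured NSCs was sequenced by the authors, whose methods name HISAT2 and mm10 for the alignment, while the labels name GRCm39. The tool, annotation and strand setting of the counting are not given in the sources used here. The deposited values were whole-number counts per gene, made by the authors without normalization.

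The main fit used edgeR 4.0.16 in R 4.3.3 (TMM, filterByExpr, quasi-likelihood test) on 16710 genes, with cko 1 to 3 against ctrl 1 and ctrl 3. It was also run on simulated counts, and no result here rests on that run. DESeq2 1.42.0 served as an alternative. Gene positions came from GENCODE M21 on GRCm38 and matched 31836 of 32493 identifiers. The genes named were the 10 genes themselves, the 2 genes with the smallest p of each partner list, and 8 paralogs and direct partners, and these rules, genes and lists were chosen with earlier results of these data known. Of the 6 partner lists, 1 enters the totals but is not reported here on its own. Reference and marker genes were named only with their lists. Alternatives changed the scaling, filter, tool, libraries, replicate block and call rule. Sites for the miR-151 seed were not searched. Figures were drawn with matplotlib 3.10.9. The 95% intervals and the floor of 3 counts cover these libraries only, and the floor covers counting error only.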

Additional observations from a re-analysis of the deposited data

How the results depend on the processing

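The calls of *Anln*, *Ect2*, *Prc1*, *Racgap1* and *Cep55* held under every alternative run, with adjusted p-values of at most 0.0487, and none of the 10 genes was called lower in any of them. The number of the 10 called higher ranged from 5 to 7, since *Cit* was lost without cko 2, without cko 3 and under the study's rule, and *Spast* was gained with all 6 columns in edgeR, but not with the replicate block added or in DESeq2. Leaving out 1 library at a time, the number of partner genes called higher ranged from 12 to 22 and the number called lower from 0 to 6, beside 20 and 1. Over all tested genes, 853, 317 and 336 were called higher without cko 1, cko 2 and cko 3, against 1314 with all 5 libraries. In the same fits 907, 416 and 457 were called lower, against 1432. The number of partner genes called lower was 3 with no filter, 2 with at least 10 counts in every library, 4 with all 6 columns, 3 with all 6 columns in DESeq2 and 0 under the study's rule. The fits with all 6 columns count the ctrl 2 column, which adds no measurement, so calls gained in them are not further evidence. Signs turned on leaving out a library in genes that did not pass the test with all 5 libraries, with log2 fold changes from -0.0571 to 0.0931 for *Rock1*, from -0.0336 to 0.0697 for *Chmp4b*, from -0.346 (past the threshold, without ctrl 3) to 0.114 for *Rhoc* and from -0.63 to 0.637 for *Chmp4c*. The cause was not tested.

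The groups share the replicate numbers 1 and 3, and the study describes cko and ctrl as littermates, but neither it nor the labels say that a number marks a shared litter or day, and deviations of same-numbered libraries correlated at 0.143 and 0.0507 across genes. A fit with the replicate number as a replicate block takes the difference from replicates 1 and 3 alone, as cko 2 has no partner. It called 6 of the 10 genes higher, 16 partner genes higher and 0 lower, and 918 genes higher and 1065 lower over all, against 1314 and 1432 without it. The calls of *Cfl1*, *Chmp2b*, *Ulk3* and *Rab8a* were lost under it. With all 6 columns and the replicate block, 3 partner genes were lower. With 2 ctrl libraries, small differences such as that of *Spast* were not resolved.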
